A study of Mus musculus with 128 samples.

Results

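Ribosome biogenesis genes encode the proteins that build ribosomes, as distinct from the proteins that ribosomes are made of. The 35 genes described here were taken by symbol from a table of 35275 genes, and all 35 were found in it. By role they comprise 2 core subunits of RNA polymerase I, 8 proteins of small nucleolar ribonucleoproteins (snoRNPs) and their assembly, 5 nucleolar proteins with regulatory or chaperone functions, 7 components of the small subunit processome, 4 factors of later small subunit maturation and 9 factors of large subunit assembly.

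RNA polymerase I copies the ribosomal RNA genes into a long precursor in the nucleolus. SnoRNPs guide its methylation and pseudouridylation, the small subunit processome folds and cleaves its leading part, and a separate set of factors assembles the large subunit on the remainder. Ribosome production is a heavy expense for a cell, and in liver the pathway is known to follow food intake and the circadian clock.

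The mice were wild-type males, either C57BL6/J or BALB/c, both common inbred strains, 8 weeks old at purchase. They were trained for 1 week to eat in an evening window, fasted for 21 h and deprived of drinking water from 4 pm. At 7 pm they received chow, with 10% of its calories from fat and 64.5% from carbohydrate, and a drink of plain water or of water with 20% glucose, sucrose or fructose. Glucose and fructose are monosaccharides, and sucrose joins a unit of each. Livers were taken before food was given (0 h) or 3, 6 and 12 h later, so feeding and hour of the day cannot be told apart in comparisons of times. Whole-liver RNA gave 26 groups by strain, drink and time. There were 5 libraries in 24 of the groups and 4 in each of the BALB/c glucose and BALB/c fructose groups at 12 h. The labels number the replicates without stating outright that each is a separate mouse, so p-values measure the spread between libraries.

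Library totals ranged from 18541545 to 43118895 counts, and the 35 genes took 0.0765% to 0.18% of them. The summed level of 8 hepatocyte markers was 52444.6 to 147233.5 CPM (counts scaled to a common library total) over all libraries, and all 8 were above 0 in the median library. In their whole expression profile 10 libraries lay nearer to another feeding time than to their own: BALB/c water 12 h replicate 1, C57BL6/J water 0 h replicate 2, replicate 4 of 6 groups at 3 h, and replicate 4 of BALB/c glucose and BALB/c fructose at 6 h. The widest gap was in C57BL6/J water 0 h replicate 2, at a root mean square log2 distance of 0.287 from the 3 h profile and 0.589 from the 0 h profile. In that library 31 of the 35 genes stood above the fasted mean of the strain. The same count, 31 of 35, was found in BALB/c water 0 h replicate 1. That BALB/c library was nearest to the 0 h profile, but at a distance of 0.9045, and no fit left it out alone. Without C57BL6/J fasted replicate 2, counts of the 35 genes are also given at 3 and 12 h for both strains together. For C57BL6/J alone they are given at 3, 6 and 12 h. Results of the other gene lists are given only with that library.

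The hexamer CACGTG, an E-box bound by MYC and by the clock activators among other factors, was looked for in the RefSeq promoter windows of the GRCm38.p6 build, which run from 250 bases before to 50 bases after a transcription start. The hexamer reads the same on both strands, and no other motif was searched. Of the 35 genes 30 matched a window, and 6 of these (20.0%) held the hexamer: Tsr1, Nop2, Mybbp1a, Wdr43, Ltv1 and Pes1. Among all 32851 windows, each 300 bases long, the share was 7.15%, counting every window of a gene and not 1 per gene as above. The first 5 were among the genes that rose at 3 h, of which 5 of 20 with a window held it, against 1 of 10 of the other genes. Their sites are shown because they are the letters these genes share, in 30 bases around each hexamer, which is in capitals. The sites lie at chr11:74898092-74898121 (Tsr1, plus strand), chr6:125131811-125131840 (Nop2, plus), chr11:72441347-72441376 (Mybbp1a, plus), chr17:71616220-71616249 (Wdr43, plus) and chr10:13193092-13193121 (Ltv1, minus).
Tsr1: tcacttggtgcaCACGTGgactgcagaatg
Nop2: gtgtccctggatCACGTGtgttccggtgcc
Mybbp1a: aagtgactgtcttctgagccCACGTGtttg
Wdr43: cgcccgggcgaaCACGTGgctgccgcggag
Ltv1: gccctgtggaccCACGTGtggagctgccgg

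The hexamer of Nop2 begins 60 bases before the annotated start, and those of Tsr1, Mybbp1a, Wdr43 and Ltv1 begin 24, 40, 17 and 28 bases after theirs. Since the Nop2 hexamer is the one that lies upstream, the 250 bases before its start (chr6:125131633-125131882, plus strand, GRCm38.p6, RefSeq) are given in full. Such a match describes letters only and shows no binding.
Nop2 upstream: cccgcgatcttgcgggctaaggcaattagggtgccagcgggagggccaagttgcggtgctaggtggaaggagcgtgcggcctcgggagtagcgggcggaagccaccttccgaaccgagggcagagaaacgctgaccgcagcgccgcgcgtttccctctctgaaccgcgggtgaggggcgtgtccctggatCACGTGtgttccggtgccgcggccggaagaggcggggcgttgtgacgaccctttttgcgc

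The genes differed widely in level. Per length (FPKM, reads scaled by gene length and library total), the median over all libraries was highest for the nucleolar histone chaperone Npm1 (76.4), then for the methyltransferase Fbl (42.3), the pseudouridylation factor Nhp2 (41.8) and nucleolin, Ncl (22.9). It was lowest for the large subunit factors Rrp1b (1.82) and Noc3l (2.04). On the mm10 build, Rrp12 lies at chr19:41862852-41896153 (minus strand), Nop58 at chr1:59684971-59719044 (plus), Nop2 at chr6:125131883-125144753 (plus), Rrp1b at chr17:32036100-32062865 (plus) and Ncl at chr1:86344719-86359400 (minus). Spread within a group also varied, with a median coefficient of variation of CPM of 10.3% for Pes1 and 41.7% for the GTPase-like factor Tsr1. Another annotated gene overlaps 13 of the 35 on the other strand, among them Nop56, Dkc1, Nhp2, Rrp9, Mybbp1a, Tsr1, Bop1 and Wdr12. The sources do not state whether counting used the strand, so their counts carry that uncertainty.

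The first comparison asked how these transcripts changed once fasted mice ate chow with plain water. At 3 h 22 of the 35 genes rose and 1 fell (edgeR, adjusted p under 0.05), where 25.4% of the 16886 genes tested were called in either direction and 12.7% were called higher. The median log2 fold change was 0.42 over the 35 genes and -0.01 over all genes tested, and 33 of the 35 values were positive. In each strain most of the genes had their highest mean over the water time course at 3 h, 31 of them in C57BL6/J and 32 in BALB/c. Relative to the fasted mean of their strain, 14 genes were higher in all 10 libraries taken at 3 h. Neither this count nor the times of the highest mean were worked out for all genes tested. Groups at 3 h and 0 h were apart in both strains for 0 of the 35 genes, where 0.184% of all genes were higher in this way.

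**Figure D1:**
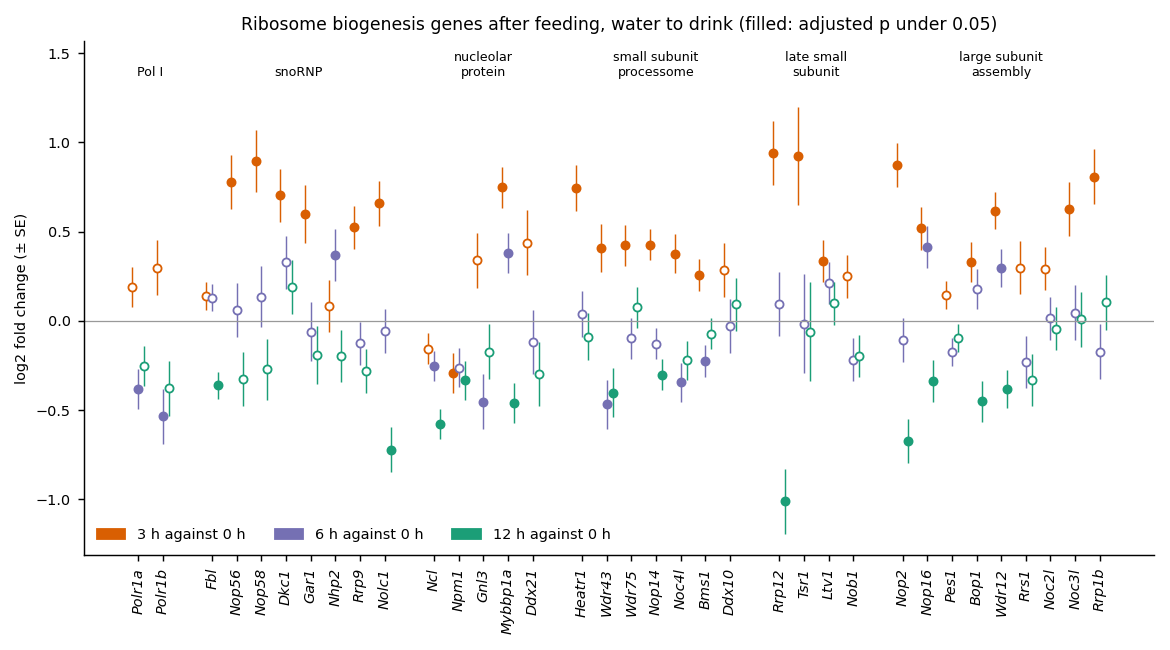
log2 fold change (± SE, edgeR, both strains averaged) of each of the 35 genes at 3, 6 and 12 h against 0 h in mice that drank water, ordered by role. Filled points have an adjusted p under 0.05. At 3 h 22 filled points lie above 0, at 6 h 4 lie above and 7 below, and at 12 h 12 lie below.

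Among factors of later small subunit maturation Rrp12, which takes part in export and maturation of both subunits, changed most. In C57BL6/J its CPM was 16.2, 29.9, 11.0, 11.9 and 11.6 in replicates 1 to 5 at 0 h and 29.9, 31.7, 29.1, 23.7 and 34.8 at 3 h. In BALB/c it was 25.9, 9.29, 12.1, 20.9 and 11.8 at 0 h and 27.5, 32.7, 34.5, 28.5 and 36.4 at 3 h. The groups did not overlap in BALB/c, while in C57BL6/J fasted replicate 2 lay within the fed range. The log2 fold change was 0.94 ± 0.18 (SE, adjusted p = 1.74e-05). Tsr1, needed for the late small subunit precursor, rose by 0.92 ± 0.28 (adjusted p = 0.00716). Its CPM was 17.6, 14.9, 4.36, 3.29 and 9.22 at 0 h and 20.4, 12.3, 10.3, 6.33 and 19.8 at 3 h in C57BL6/J, which overlap widely. In BALB/c it was 9.66, 6.43, 4.48, 3.46 and 9.26 at 0 h and 15.9, 25.3, 14.8, 8.49 and 21.1 at 3 h, where replicate 4 alone of the fed libraries fell into the fasted range. Ltv1, a transient small subunit factor, rose by 0.34 ± 0.12, a call lost in 4 of 15 alternative fits, and the endonuclease Nob1 at 0.25 ± 0.12 was not called (adjusted p = 0.119).

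Of the 8 snoRNP genes 6 rose, with a median of 0.63. Nop58, a core protein of the methylation-guiding box C/D particles, had CPM of 32.2, 55.7, 16.7, 21.9 and 27.2 at 0 h and 52.0, 60.2, 47.7, 40.4 and 58.0 at 3 h in C57BL6/J. Its values in BALB/c were 36.8, 17.7, 19.1, 32.8 and 20.0 at 0 h and 46.8, 43.3, 53.8, 48.9 and 68.0 at 3 h, with no overlap. It rose by 0.90 ± 0.17 (adjusted p = 1.63e-05) and its partner Nop56 by 0.78 ± 0.15 (2.47e-05), each higher in 10 of 10 libraries. The box H/ACA proteins Dkc1, the pseudouridine synthase, and Gar1 rose by 0.70 ± 0.15 and 0.60 ± 0.16. Rrp9, which binds the U3 snoRNA, rose by 0.52 ± 0.12, and Nolc1, a nucleolar chaperone of snoRNPs, by 0.66 ± 0.13. The remaining snoRNP genes are the most abundant per length, and neither was called: Fbl stood at 0.14 ± 0.08 (adjusted p = 0.187) and Nhp2 at 0.08 ± 0.15 (0.749).

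In large subunit assembly 6 of 9 genes rose and the other 3, Pes1, Rrs1 and Noc2l, had positive values that did not pass. Nop2, an rRNA cytosine methyltransferase, had CPM of 27.7, 49.5, 21.8, 25.7 and 23.5 at 0 h and 47.9, 59.6, 46.6, 44.7 and 62.0 at 3 h in C57BL6/J. In BALB/c the values were 33.9, 22.0, 25.9, 38.4 and 27.8 at 0 h and 55.0, 49.6, 53.8, 58.1 and 66.4 at 3 h. Outside C57BL6/J fasted replicate 2 every fed value exceeded every fasted one, and the difference was 0.87 ± 0.12 (adjusted p = 1.28e-08). Rrp1b, a nucleolar factor of large subunit maturation, rose by 0.81 ± 0.15 (1.69e-05), Noc3l by 0.63 ± 0.15, Wdr12 of the Pes1, Bop1 and Wdr12 complex by 0.62 ± 0.10, Nop16 by 0.52 ± 0.12 and Bop1 by 0.33 ± 0.11. The call of Bop1 was lost in 5 of 15 alternative fits.

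In the small subunit processome 6 of 7 genes rose, led by Heatr1, a large scaffold that also serves transcription of ribosomal DNA. Heatr1 stood at 26.9, 39.7, 17.4, 18.0 and 21.9 CPM at 0 h and 38.9, 34.8, 31.8, 35.5 and 43.2 at 3 h in C57BL6/J. In BALB/c it stood at 26.2, 15.3, 16.2, 24.8 and 14.7 at 0 h and 30.9, 37.6, 36.8, 39.2 and 39.7 at 3 h, again without overlap. It differed by a log2 fold change of 0.74 ± 0.13 (adjusted p = 2.69e-06). Nop14, Wdr75, Wdr43, Noc4l and the GTPase Bms1 rose by 0.26 to 0.43, with the call of Bms1 lost in 4 of 15 alternative fits. The helicase Ddx10 at 0.28 ± 0.15 was not called. The 2 polymerase subunits Polr1a and Polr1b, at 0.19 ± 0.11 and 0.30 ± 0.15, were not called either.

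The 5 nucleolar proteins did not move as a group. Mybbp1a, a transcriptional regulator of the nucleolus, rose by 0.75 ± 0.11 (adjusted p = 7.75e-08). It stood at 65.2, 112.0, 54.7, 67.1 and 67.1 CPM at 0 h and 130.2, 118.4, 109.6, 156.8 and 128.5 at 3 h in C57BL6/J, and at 106.7, 57.7, 55.0, 73.1 and 56.2 at 0 h and 107.5, 116.4, 102.7, 119.8 and 113.9 at 3 h in BALB/c. The GTPase Gnl3 at 0.34 ± 0.15 (adjusted p = 0.0971) and the helicase Ddx21 at 0.44 ± 0.18 (0.0651) were not called. Npm1 fell by 0.29 on the log2 scale (standard error 0.11, adjusted p = 0.0398), and Ncl was at -0.16 ± 0.08 (0.182). Npm1 stood at 205.5, 152.6, 166.2, 156.1 and 172.7 CPM at 0 h and 140.7, 118.8, 147.4, 76.0 and 179.9 at 3 h in C57BL6/J, and at 180.5, 135.1, 141.2, 99.2 and 178.3 against 122.9, 118.5, 123.8, 96.6 and 168.7 in BALB/c. These groups overlap in both strains, and the call of Npm1 was lost in 8 of 15 alternative fits. Npm1 also has processed copies in the genome with which reads could be shared.

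**Figure D2:**
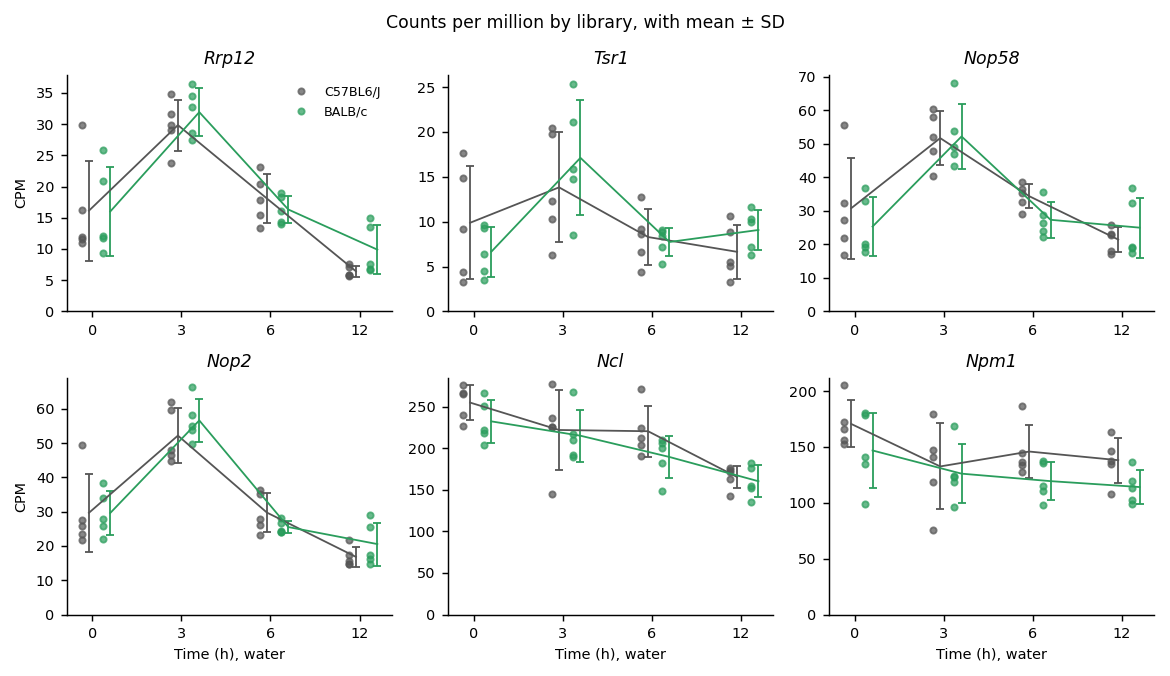
CPM of 6 of the genes in each liver of the water groups (points), with the mean and SD of each group (lines and bars), by strain. The horizontal axis gives time as categories, in h after food was offered. Rrp12, Tsr1, Nop58 and Nop2 stand highest at 3 h, while Ncl and Npm1 stand highest at 0 h; the raised fasted C57BL6/J point of Rrp12, Nop58 and Nop2 is replicate 2.

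Taken by strain, 12 genes rose in C57BL6/J and 17 in BALB/c at 3 h, where 11.1% and 18.2% of all genes were called in either direction and 5.35% and 9.14% were called higher. The difference between the strains in this response was called for 0 of the 35 genes (edgeR, 0 at an unadjusted p under 0.05, and 0 with DESeq2), where 0.338% of all genes were called. The C57BL6/J count was 19 without fasted replicate 2 and 20 leaving out the 10 libraries that resembled another time. It was 6 without replicate 1, 4 without replicate 3, 4 without replicate 5, and 0 when the 10 libraries of that contrast were fitted alone. For both strains together the count of risen genes was 26 without C57BL6/J fasted replicate 2 and 25 without the 10 libraries. In whole liver a change in RNA per cell and a change in the cells sampled cannot be told apart. Beside these results, the hepatocyte marker sum had a median of 98202.2 CPM at 0 h and 98471.5 CPM at 3 h on water, the sum of 8 markers of cycling cells 9.56 and 6.52 CPM, and that of 10 skeletal muscle transcripts 215.1 and 65.0 CPM. The part of these transcripts in the result was not tested.

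By 6 h on water 4 of the 35 genes were higher and 7 lower than at 0 h, and 24 were not called. The share called was near that of all genes, of which 28.8% were called, 13.9% higher and 14.9% lower. Groups at 6 h and 0 h were apart in both strains for 0 of the 35 genes. Of all genes 1.52% were higher and 1.14% lower in this way. Both polymerase subunits fell, the catalytic subunit Polr1a by 0.38 on the log2 scale (standard error 0.11, adjusted p = 0.00552) and Polr1b by 0.53 (standard error 0.15, 0.00419). Polr1b stood at 25.3, 37.8, 19.5, 28.6 and 25.5 CPM at 0 h and 18.4, 18.0, 22.7, 14.6 and 22.8 at 6 h in C57BL6/J. In BALB/c it stood at 26.1, 16.4, 18.1, 29.4 and 14.3 at 0 h and 13.9, 13.3, 13.5, 13.2 and 16.4 at 6 h. All 10 libraries at 6 h lay below the fasted mean of their strain, though the ranges overlap. Polr1a, at 37.2, 27.8, 22.8, 29.2 and 29.8 CPM at 0 h in C57BL6/J and 33.1, 25.7, 23.7, 41.0 and 24.1 in BALB/c, was also below the fasted mean in 10 of 10 libraries at 6 h. Its values at 6 h were 25.4, 19.6, 28.6, 22.9 and 22.5 CPM in C57BL6/J and 22.8, 20.2, 24.3, 22.5 and 17.6 in BALB/c.

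Besides the polymerase, Wdr43, Gnl3, Noc4l, Ncl and Bms1 fell at 6 h by 0.23 to 0.47 on the log2 scale. The genes that were higher were Nop16 (0.41 ± 0.12, adjusted p = 0.0044), Mybbp1a (0.38 ± 0.11), Nhp2 (0.37 ± 0.15, 0.0452) and Wdr12 (0.30 ± 0.10). Nop16 stood at 28.4, 42.5, 27.6, 25.6 and 18.9 CPM at 0 h and 35.7, 44.4, 40.8, 37.0 and 47.2 at 6 h in C57BL6/J, and at 20.2, 29.4, 35.2, 28.8 and 34.9 against 30.6, 32.4, 44.2, 37.7 and 38.5 in BALB/c, higher than the fasted mean in 10 of 10. The calls of Nhp2, Bms1, Gnl3 and Wdr12 were lost in 7, 10, 5 and 4 of 15 alternative fits. The share of higher among called genes was less firm, with 2 higher and 4 lower without replicate 1 and 0 higher and 7 lower without replicate 5. By strain 2 genes were higher and 0 lower in C57BL6/J (13.7% of all genes called) and 1 higher and 3 lower in BALB/c (18.9%), with 2 higher and 0 lower in BALB/c when libraries were scaled by total counts.

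Over all drinks and both strains, 31 of the 35 genes were lower at 6 h than at 3 h (29.2% of all genes called, 14.5% lower), with a median log2 fold change of -0.29. Nop2 fell by 0.61 on the log2 scale (standard error 0.06, adjusted p = 4.26e-14), Gnl3 by 0.55 and Rrp12 by 0.52. Dkc1, Nhp2, Bop1 and Noc2l were not called. Leaving out each replicate number in turn gave 24 to 29 called genes. Calls of Rrp1b, Npm1 and Nop16 were lost in 10, 9 and 5 of 15 alternative fits. From 6 to 12 h 20 genes fell, among them Nhp2, Bop1 and Noc2l, and 2 rose, in a contrast in which 51.6% of all genes were called, 26.2% lower. Rrp12 fell by 1.14 (standard error 0.09, adjusted p = 2.58e-20), Mybbp1a by 0.80 (standard error 0.06, 1.66e-23) and Nop2 by 0.73 (standard error 0.06, 6.45e-19), while Pes1 and Ddx10 rose by 0.11 and 0.18. Calls of Pes1 and Ddx10 were lost in 2 and 6 of 15 alternative fits. From 6 to 12 h, 17 to 25 genes were called with each replicate number left out in turn.

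**Figure D3:**
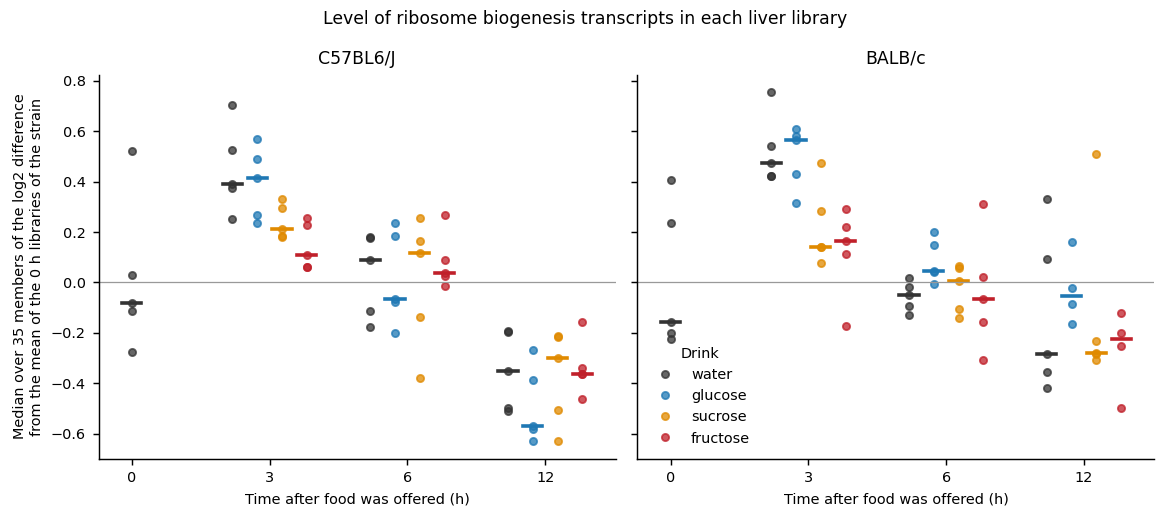
Median over the 35 genes of the log2 difference of each library from the mean of the 0 h libraries of its strain (points), with the median of each group (bars), by drink, time and strain. Water libraries at 3 h lie between 0.25 and 0.703 in C57BL6/J and between 0.424 and 0.756 in BALB/c, and the raised points at 0 h are C57BL6/J replicate 2 (0.522) and BALB/c replicates 1 and 4 (0.408 and 0.237).

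At 12 h on water 12 of the 35 genes were below their fasted level and 0 were above (17.6% of all genes called, 9.3% lower; 0 higher at an unadjusted p under 0.05 and 0 with DESeq2). The median log2 fold change was -0.27. Rrp12 was again the gene that moved most, falling by 1.01 on the log2 scale (standard error 0.18, adjusted p = 9.45e-06). Its CPM at 12 h was 5.89, 7.13, 5.62, 5.79 and 7.65 in C57BL6/J, all below the fasted values given above, and 14.9, 6.63, 7.65, 13.5 and 6.77 in BALB/c, where the ranges overlap. Nolc1 fell by 0.72 (standard error 0.13, adjusted p = 4.13e-06), with CPM of 42.5, 71.8, 37.6, 40.7 and 39.2 at 0 h and 23.5, 28.8, 18.9, 25.4 and 30.4 at 12 h in C57BL6/J and of 48.7, 35.2, 43.3, 71.9 and 40.7 against 40.4, 25.0, 25.2, 45.1 and 25.4 in BALB/c. In C57BL6/J the groups are apart, and in both strains all 12 h values lie below the fasted mean.

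Ncl, a nucleolin that binds ribosomal RNA and its genes, was the gene whose groups were apart in both strains at 12 h (64 of 16886 genes, or 0.379%, were lower in this way). It stood at 265.1, 227.0, 240.5, 266.9 and 276.2 CPM at 0 h and 142.7, 174.1, 163.3, 176.4 and 171.0 at 12 h in C57BL6/J. In BALB/c it stood at 266.5, 204.2, 218.3, 222.5 and 250.9 at 0 h and 182.8, 155.0, 176.9, 152.0 and 135.4 at 12 h. It differed by a log2 fold change of -0.58 ± 0.09 (adjusted p = 5.16e-08). Nop2 fell by 0.67 (standard error 0.13, 1.58e-05), Mybbp1a by 0.46, Bop1 by 0.45 and Fbl by 0.36, and Wdr43, Wdr12, Nop16, Npm1 and Nop14 by 0.30 to 0.40. Calls of Nop16, Wdr43, Npm1, Nop14, Wdr12 and Mybbp1a were lost in 10, 7, 5, 4, 3 and 3 of 15 alternative fits. Of the genes that led at 3 h, Tsr1 (-0.06), Rrp1b (0.10), Noc3l (0.01) and Heatr1 (-0.09) were not called at 12 h.

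The 12 h count was 6 in the libraries of the contrast alone, 6 with total-count scaling and 7 in the 94 libraries whose names lack an appended letter a, which the labels do not explain. It was 10 without C57BL6/J fasted replicate 2. By strain 9 genes fell in C57BL6/J (7.67% of all genes called, 4.36% lower) and 3 in BALB/c (9.97%, 4.93% lower). BALB/c replicates 1 and 4 stood above the fasted mean at 12 h, by a median of 0.33 and 0.094 over the 35 genes. Replicate 1 is the library whose whole profile was nearest to 0 h, and without the 10 such libraries 7 genes fell in BALB/c and 5 in C57BL6/J. The C57BL6/J count was also 5 without fasted replicate 2 alone. Differences between the strains in the change from 0 h were called for 0 genes at 6 h and 0 at 12 h (edgeR, and 0 with DESeq2 for each), against 0.302% and 0.278% of all genes. At an unadjusted p under 0.05 there were 0 genes at 6 h and 3 at 12 h, Nop56, Dkc1 and Noc4l, whose change from 0 h was more positive in BALB/c by 0.54 to 0.73 (log2), with adjusted p from 0.414 to 0.505. Over all drinks at 12 h skeletal muscle transcripts had a median sum of 2.04 CPM and red blood cell transcripts 304.4 CPM, against 215.1 and 533.1 CPM at 0 h, and their part in the result was not tested. These 12 h sums include the sugar groups, whereas the changes from 0 h described above are on water alone.

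The next comparisons asked whether sugar in the drink altered these transcripts beyond chow and water, at the same time after feeding and the same 20% concentration. With fructose at 3 h 16 of the 35 genes were lower than with water and 0 higher (6.71% of all genes called, 3.34% lower). The median log2 fold change was -0.39 over the 35 genes and 0.00 over all genes. Below the water mean of their strain in 10 of 10 libraries were 19 genes, a count not made for all genes tested. These comparisons share the 10 water libraries at 3 h with the comparison of 3 h against 0 h, so the values of one are not independent of the other. Relative to fasted livers of the strain, the median over the 35 genes was 0.06 to 0.255 in C57BL6/J and -0.175 to 0.293 in BALB/c with fructose.

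**Figure D4:**
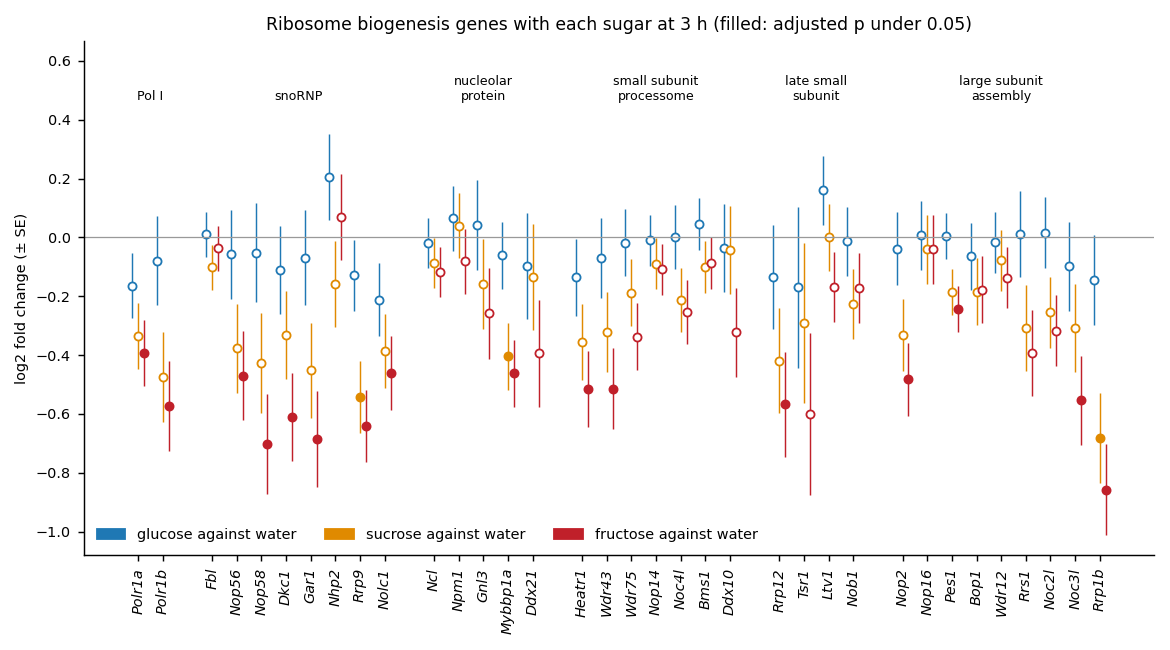
log2 fold change (± SE, edgeR, both strains averaged) of each of the 35 genes with glucose, sucrose or fructose against water at 3 h, ordered by role. Filled points have an adjusted p under 0.05. With fructose 16 points are filled, all below 0; with sucrose 3 are filled and with glucose 0.

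Rrp1b differed most. On water at 3 h it stood at 13.9, 17.2, 13.7, 14.1 and 17.8 CPM in C57BL6/J and 12.7, 11.7, 13.8, 15.0 and 13.0 in BALB/c. With fructose it stood at 7.36, 9.71, 8.07, 7.40 and 6.02 in C57BL6/J and 9.94, 7.03, 8.75, 5.18 and 9.14 in BALB/c. The groups were apart in both strains, and the difference was -0.86 ± 0.15 (adjusted p = 5.11e-05). In all 5 genes were lower with no overlap in either strain (Rrp1b, Rrp9, Polr1b, Nop2 and Noc3l), against 0.338% of all genes tested.

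The snoRNP genes were lower in 6 of 8 cases with fructose, with a median of -0.54. Rrp9 stood at 17.7, 24.6, 20.2, 19.5 and 19.1 CPM with water and 12.4, 14.4, 13.1, 11.2 and 11.0 with fructose in C57BL6/J, and at 18.2, 14.2, 19.4, 22.1 and 15.8 against 12.1, 10.4, 12.8, 11.2 and 13.7 in BALB/c. It was lower by 0.64 ± 0.12 on the log2 scale (log2 fold change -0.64, adjusted p = 0.000144). Nop58 stood at 27.0, 29.2, 39.5, 29.8 and 42.9 CPM with fructose in C57BL6/J and 29.1, 35.5, 33.1, 16.1 and 37.3 in BALB/c, with a log2 fold change of -0.70 ± 0.17 (0.00369). Against the water values given above, only the C57BL6/J ranges of Nop58 overlap. Gar1, at 10.0, 8.42, 14.8, 7.19 and 12.3 CPM with fructose against 15.9, 23.2, 21.8, 15.6 and 17.6 with water in C57BL6/J, had a log2 fold change of -0.68 ± 0.16. Dkc1, Nop56 and Nolc1 followed at -0.61, -0.47 and -0.46, whereas Fbl (-0.04) and Nhp2 (0.07) were not called. Nop56 lost its call in 7 of 15 alternative fits.

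Both polymerase subunits were lower with fructose, Polr1b at -0.57 ± 0.15 (adjusted p = 0.00869) and Polr1a at -0.39 ± 0.11 (0.0165). Rrp12 was at -0.57 ± 0.18, Noc3l at -0.55 ± 0.15, Heatr1 at -0.52 ± 0.13, Wdr43 at -0.51 ± 0.14, Nop2 at -0.48 ± 0.12, Mybbp1a at -0.46 ± 0.11 and Pes1 at -0.24 ± 0.08, each called. Calls of Pes1, Rrp12, Polr1a, Polr1b, Noc3l and Mybbp1a were lost in 6, 5, 4, 3, 3 and 1 of 15 alternative fits. Of the nucleolar proteins Npm1 (-0.08) and Ncl (-0.12) were not called, nor was Tsr1 (-0.60 ± 0.27, adjusted p = 0.216). The count was 12 leaving out the 10 libraries that resembled another time and 10 in the 94 libraries without the name suffix. Medians of the marker sums with fructose and with water at 3 h were 91574.0 and 98471.5 CPM for hepatocytes, 208.2 and 188.1 CPM for macrophages, 10.2 and 6.52 CPM for cycling cells and 56.4 and 65.0 CPM for skeletal muscle, and their part in the result was not tested.

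Sucrose gave 3 lower genes at 3 h (2.92% of all genes called, 1.27% lower) and a median of -0.25: Rrp1b at -0.68 ± 0.15, Rrp9 at -0.54 ± 0.12 (adjusted p = 0.00331 for each) and Mybbp1a at -0.40 ± 0.11 (0.0255). Rrp1b stood at 7.98, 10.8, 6.74, 7.81 and 7.60 CPM with sucrose in C57BL6/J and 9.98, 9.16, 10.1, 8.22 and 10.8 in BALB/c, below every water value. Rrp9 stood at 13.0, 15.2, 14.1, 12.1 and 11.3 CPM with sucrose in C57BL6/J and 14.7, 11.3, 11.9, 14.1 and 13.2 in BALB/c, apart from water in C57BL6/J. The count with sucrose was 12 in the libraries of the contrast alone, 5 with DESeq2 and 0 in the libraries without the name suffix. Mybbp1a lost its call in 7 of 15 alternative fits. Whether sucrose and fructose differed was not tested.

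With glucose 0 of 35 genes were called at 3 h (edgeR, 0 at an unadjusted p under 0.05, 0 with DESeq2; 0.19% of all genes called). The log2 fold changes ran from -0.21 for Nolc1 to 0.20 for Nhp2. For Rrp1b the 95% interval of the glucose difference was -0.45 to 0.16, and for Nop2 it was -0.28 to 0.21. Fructose and glucose, the 2 monosaccharides, were compared directly at 3 h, which uses no water library. With fructose 7 genes were lower and 0 higher than with glucose (2.35% of all genes called, 1.27% lower): Rrp1b (-0.71 ± 0.15, adjusted p = 0.00312), Nop58 (-0.65 ± 0.17, 0.0202), Gar1 (-0.61 ± 0.16, 0.0209), Rrp9 (-0.51 ± 0.12, 0.00858), Dkc1 (-0.50 ± 0.15, 0.0498), Nop2 (-0.44 ± 0.12, 0.0315) and Mybbp1a (-0.40 ± 0.11, 0.0342). At an unadjusted p under 0.05, 21 genes were lower with fructose than with glucose and 0 higher, a count not made for all genes tested. Among genes that were not called, the 95% interval lay below 0 for several, such as Polr1b (-0.80 to -0.19), Noc3l (-0.76 to -0.16) and Wdr43 (-0.71 to -0.17). For Nop16, Fbl and Npm1, also not called, the intervals were -0.28 to 0.19, -0.20 to 0.10 and -0.37 to 0.07. The count was 3 leaving out the 10 libraries that resembled another time, 3 without replicate 1, 3 without replicate 3, 1 without replicate 4 and 3 without replicate 5. Calls of Dkc1, Mybbp1a, Nop2, Nop58, Gar1, Rrp9 and Rrp1b were lost in 8, 8, 7, 4, 4, 2 and 1 of 15 alternative fits.

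At 6 h glucose and sucrose gave 0 calls each (9 and 4 genes at an unadjusted p under 0.05, 0 with DESeq2; 0.906% and 1.14% of all genes called). Fructose gave 1, Rrp1b, which was higher by 0.59 ± 0.16 (adjusted p = 0.0278; 1.23% of all genes called). That call was lost without each replicate in turn and in the libraries without the name suffix. At 12 h each sugar gave 0 calls (0 at an unadjusted p under 0.05 and 0 with DESeq2), where 0.0651%, 0.00592% and 0.00592% of all genes were called with glucose, sucrose and fructose.

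Averaged over 13 conditions of drink and time, 10 of the 35 genes were higher and 9 lower in BALB/c than in C57BL6/J, a share near that of all genes (55.3%). The widest differences were in Polr1b (-0.44 ± 0.06, adjusted p = 4.27e-10) and Noc3l (-0.35 ± 0.06, 2.64e-07), lower in BALB/c, and in Gar1 (0.23 ± 0.06, 0.00111) and Rrp1b (0.20 ± 0.06, 0.00358), higher in BALB/c. The split depended on scaling, with 15 higher and 4 lower by total counts. It was 5 higher and 8 lower without replicate 1 and 4 and 8 without replicate 3.

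Other genes of the pathway, in lists drawn up by function, were also called at 3 h on water, where 25.4% of all genes were called. Of 43 further small subunit processome genes 25 rose and 2 fell (median 0.35), among them Bysl (1.00 ± 0.15, adjusted p = 6.79e-08), needed for small subunit assembly, and Pwp2 (0.67 ± 0.11), while Rcl1, a processome factor, fell by 0.99 (standard error 0.13, 1.5e-09). Of 46 further large subunit assembly genes 26 rose and 1 fell (median 0.35), with Ccdc86 at 0.97 ± 0.13, the 5S particle factor Rpf2 at 0.77 ± 0.11 and Nop53, which recruits the exosome, at -0.53 ± 0.09. Of 14 polymerase I subunits and factors 6 rose, led by Polr1e (0.84 ± 0.14). Of 12 snoRNP assembly genes 4 rose and 1 fell, with the ATPases Ruvbl2 and Ruvbl1 at 0.70 ± 0.11 and 0.44 ± 0.12. In the RNA exosome, which trims ribosomal RNA precursors, 5 of 13 rose and 1 fell, with Exosc3 at 0.61 ± 0.09.

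**Figure D5:**
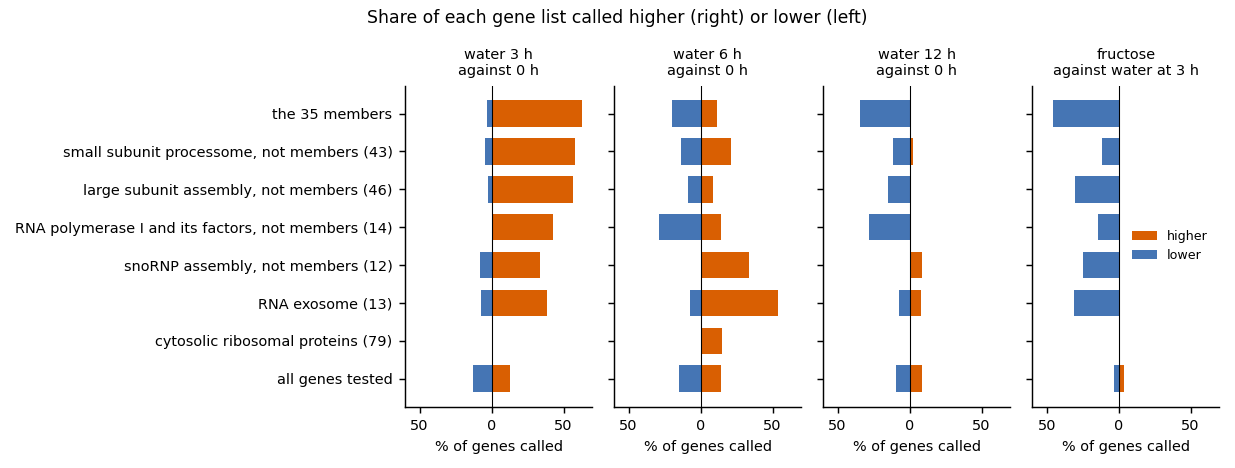
Share of the 35 genes, of 6 other gene lists (number of genes in brackets) and of all genes tested that were called higher (right) or lower (left) by edgeR in 4 comparisons. In the first comparison 22 of the 35, 25 of 43 and 26 of 46 genes were higher, against 1 of 79 ribosomal protein genes.

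Of 79 cytosolic ribosomal protein genes, which encode the ribosome itself, 1 was higher at 3 h (Rps26, 0.27 ± 0.10, adjusted p = 0.0378), with a median of -0.03. At 6 h 12 were higher and 0 lower (median 0.18), a share near the 13.9% of all genes called higher. Among them were Rpl15 (0.39 ± 0.10) and Rpl7a (0.28 ± 0.09). At an unadjusted p under 0.05 (edgeR), 27 were higher at 6 h in C57BL6/J and 1 in BALB/c. These counts do not test a difference between the strains. In the edgeR test of the strain difference at 6 h, no ribosomal protein gene reached that p. From 6 to 12 h 46 were lower (median -0.17; 26.2% of all genes), such as Rpl29 (-0.26 ± 0.04). These genes have many near-identical copies, so their counts are uncertain where reads are shared. With fructose at 3 h the further small subunit genes were lower in 5 of 43 cases and the further large subunit genes in 14 of 46, where 3.34% of all genes were called lower, led by Ddx24 (-0.50 ± 0.09) and Ccdc86 (-0.63 ± 0.13). Aatf (-0.61 ± 0.10) and Taf1b, a subunit of the polymerase I selectivity factor (-0.75 ± 0.13, 4.49e-05), were among those lower.

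Among 21 regulators of growth, 1 was higher and 11 were lower at 3 h on water, where 12.7% of all genes were called in each direction. Lower were Sesn2 (-2.16 ± 0.19, adjusted p = 4.95e-17), which restrains mTORC1 when leucine is scarce, the polymerase III repressor Maf1 (-1.24 ± 0.17), Mycl (-1.69 ± 0.24) and the translation repressor Eif4ebp1 (-0.69 ± 0.12). Higher was Odc1, the ornithine decarboxylase of polyamine synthesis and a classical MYC target, at 1.09 ± 0.21 (2.97e-05). It was named after its values were seen, as the 1 regulator that rose. It was lower at 12 h (-0.74 ± 0.21). Myc itself stood at -1.06 ± 0.46 at 3 h (adjusted p = 0.0817, not called), fell by 2.02 on the log2 scale at 6 h (standard error 0.48, 0.000494), and stood at -0.76 ± 0.46 at 12 h (0.286). With fructose at 3 h Mycl (1.25 ± 0.24), Sesn2 (0.74 ± 0.18) and Maf1 (0.72 ± 0.17) were higher and Odc1 lower (-0.95 ± 0.21) than with water, again against the same water libraries, and Myc at -0.31 ± 0.46 was not called. Of 12 p53 targets, which can respond to impaired ribosome assembly, 2 rose and 2 fell at 3 h, near the share of all genes.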

How the data were processed

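Liver RNA was sequenced as 150 bp paired reads on an Illumina NovaSeq after NEBNext library preparation, per the labels' protocols. The submitters' processing notes name CASAVA, STAR 2.5, HTSeq 0.6.1 and DESeq2 and the mm10 build. The authors deposited raw read counts per gene and FPKM per library. The deposited FPKM equalled count per length and total, and served to compare levels between genes. The authors' table of FPKM per group was not used, and 0 columns of other samples were present.

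Genes passing edgeR's expression filter over the 26 groups (16886 of 35275) were fitted in 1 model of group means over all libraries (edgeR 4.0.16, TMM scaling, robust quasi-likelihood F test, two-sided), and p-values were adjusted by Benjamini-Hochberg over all genes tested in each contrast, with a threshold of 0.05. All 35 genes passed the filter. CPM used TMM-scaled totals. The fit was also run on simulated counts, drawn independently with 1 dispersion for all genes. That run cannot show how the fit handles outlying or correlated libraries. Alternatives were no filter, the libraries of the contrast alone, DESeq2 1.42.0, RLE or total-count scaling, a replicate block, the name suffix as covariate or criterion, each replicate number left out and, chosen after seeing the data, the libraries nearer to another time left out. Totals of 18541545 to 43118895 counts set the precision. No pair of libraries was identical.

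All 35 genes could be named. From each other list up to 4 genes with the smallest p per contrast were named, with Myc. The members, lists and motif were chosen with earlier results of these data known, so list counts are descriptions and carry no test. Counts at an unadjusted p were made for the 35 genes and the lists alone, so no share of all genes stands beside them.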

Additional observations from a re-analysis of the deposited data

Results flagged for a closer look

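In 9 of 112 groups and quantities examined, 1 library stood apart from the others of its group by Dixon's criterion, and chance gives about 1 in 20. C57BL6/J water 0 h replicate 2 was the high library for 5 genes, at 29.9 CPM for Rrp12, 49.5 for Nop2, 17.2 for Rrp1b, 112.0 for Mybbp1a and 71.8 for Nolc1. This is the fasted library whose whole profile lay nearer to 3 h. In BALB/c water 6 h replicate 5, Polr1b stood apart at 16.4 CPM. The summed level of the 35 genes stood apart in BALB/c fructose 3 h replicate 4 (1047.8 CPM, low), in C57BL6/J fructose 6 h replicate 3 (1418.8 CPM) and in BALB/c sucrose 12 h replicate 2 (1551.6 CPM, high).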

How the results depend on the processing

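Of 145 called values of the 35 genes, 75 stayed called in all 15 alternatives, and of 2175 recomputed values 1892 kept direction and call, 283 kept direction and lost the call and 0 reversed. Counts below are of called genes, and the cause of each shift was not tested. Leaving out each replicate number in turn gave 16 to 27 at 3 h against 0 h on water, 6 to 10 at 6 h and 9 to 12 at 12 h. By strain it gave 4 to 16, 0 to 3 and 5 to 8 in C57BL6/J and 12 to 19, 0 to 5 and 1 to 5 in BALB/c. It gave 11 to 15 for fructose, 2 to 3 for sucrose and 1 to 5 for fructose against glucose at 3 h, 0 to 0 for fructose at 6 h, and 12 to 16 between strains. The BALB/c 6 h count turned to mostly higher without replicate 4 (3, of which 2 higher), and the strain count to mostly lower without replicate 1 (13) and replicate 3 (12). In the libraries of the contrast alone, counts were 6 at 12 h, 0, 0 and 3 in C57BL6/J and 11, 0 and 0 in BALB/c at 3, 6 and 12 h, 12 for sucrose at 3 h and 2 for fructose at 6 h. DESeq2 gave 7 for BALB/c at 12 h, 5 for sucrose at 3 h and 2 for fructose at 6 h. Total-count scaling raised the 35 genes at 12 h by a median of 0.112 (log2) and gave 6 at 12 h, 1 for C57BL6/J at 6 h, 2 (both higher, a turn) for BALB/c at 6 h and 2 for fructose at 6 h, where RLE scaling and the suffix covariate also gave 2. Without the suffixed libraries counts were 7 at 12 h, 4 for C57BL6/J at 12 h, 0 for sucrose and 10 for fructose at 3 h, 0 for fructose at 6 h and 4 for fructose against glucose, which was also 4 with no filter. Without the libraries nearer to another time they were 20, 4 and 5 in C57BL6/J at 3, 6 and 12 h, 7 in BALB/c at 12 h and 3 for fructose against glucose. Without C57BL6/J fasted replicate 2 they were 19, 4 and 5 in C57BL6/J. Same-numbered libraries tended to deviate together, with low correlations. For C57BL6/J 3 and 0 h, r was 0.057 to 0.239 over the 5 same-numbered pairs (median 0.183), against a median of -0.062 for other numbers. Over all groups the medians were 0.083 and -0.022, with same-numbered r from -0.427 to 0.48. In all, 85 libraries (66.4%) correlated best with their own number, more than an even spread over 5 numbers would give. The main fit left the replicate number out. With the replicate block fructose at 6 h gave 2 calls, water at 3 h gave 24, and no other count moved by over 1.5 times.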
